A study of Mus musculus with 6 samples.

Results

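The genes described here encode the proteins of the mitochondrial ribosome, measured in mouse platelets. They were chosen by symbol alone, as all genes of the expression table whose symbol starts with Mrpl or Mrps followed by a digit. This rule found 77 of the 14975 genes listed, of which 48 carry the prefix Mrpl, for the large subunit, and 29 the prefix Mrps, for the small subunit, a naming with a few exceptions. The mitochondrial ribosome translates the few messages of the mitochondrial genome, which encode core subunits of the respiratory chain and of ATP synthase. Its ribosomal RNAs come from the mitochondrial genome, while all of its proteins are encoded in the nucleus, made in the cytoplasm and imported. Platelets have no nucleus, and their mitochondria and nuclear-encoded messages are inherited from megakaryocytes.

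Platelet RNA of 3 control libraries and 3 pre-AML libraries was compared. Control platelets came from recipients of normal bone marrow (BMT control). Pre-AML platelets came from sub-lethally irradiated secondary recipients of GFP-marked cells carrying MLL-AF9, a leukemia fusion oncogene delivered by retrovirus, 1 week after transplantation. Both groups were irradiated before transplantation. The labels give the strain as C57BL/6 and call the groups WT and AML. Recipients were female CD45.1 or C57BL/6 mice, 8 to 12 weeks old. The methods describe 3 independent mice, whereas the design text mentions 2 replicates and pools of 3 to 4 mice, so p-values measure the spread between these libraries, whatever its source. Cells carrying CD45 or Ter119, markers of leukocytes and erythroid cells, had been depleted, and cDNA was amplified with SMART-Seq2 from polyA RNA. Values are FPKM, which divide the reads of a gene by its length and by the size of the library.

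The libraries held between 11936006 and 17779026 recovered reads on the listed genes. Platelet markers were abundant in all 6, with a summed level over 10 genes of 89341 to 113235 FPKM in the controls. This sum was 90511 and 91776 FPKM in the first 2 pre-AML libraries and lowest in pre-AML 3, at 61118 FPKM. Of the 10 genes, 0 were highest in pre-AML 3. Pre-AML 3 stood apart from the other libraries, at 41.9 on a first principal component that held 70.2% of the variance, where the other 5 lay between -12.7 and -2.12. Its summed level of 7 B cell markers was 227 FPKM, against 1.03 in pre-AML 1, 19.6 in pre-AML 2 and 1.64 to 1.92 in the controls. Of 11 monocyte and macrophage markers, 10 were highest in pre-AML 3, and Cd14, Ccr2 and Itgam were at 0 in all controls. Lyz2 and Fcer1g held nearly all of the sum of the list, which was 4664 to 5317 FPKM in the controls and 5242 FPKM in pre-AML 3. The other 9 summed to 0.210 to 0.842 FPKM in the controls, 5.36 and 7.42 FPKM in the first 2 pre-AML libraries and 282 FPKM in pre-AML 3, where Tyrobp was at 153 and Ctss at 47.6 FPKM. The T and NK cell list was at 19.1 to 28.9 FPKM in controls and up to 42.2 FPKM in pre-AML libraries, with Nkg7 at 18.9 FPKM or more in every library, 7 of 9 markers highest in pre-AML 3, and Cd2, Cd3g and Prf1 at 0 in all controls. The neutrophil list was at 2.05 to 2.98 FPKM in controls and 0.661 to 3.49 FPKM in pre-AML libraries, with Mpo, Retnlg and Elane at 0 in all controls. Cycling progenitor markers summed to 0.440 to 2.12 FPKM in controls and 0.717 to 0.844 FPKM in pre-AML libraries, and Flt3 was at 0 in all controls. The erythroid list was at 2351 to 2653 FPKM in controls and 2378 to 2991 FPKM in pre-AML libraries. The library size used for FPKM exceeded the recovered reads by a factor of 1.31 in pre-AML 3, against factors of 0.983 to 1.01 elsewhere, so the same share of reads gives a lower FPKM there. In bulk RNA, fewer cells of a kind and less RNA per cell cannot be told apart.

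The genes lie on 17 chromosomes, with 11 on chromosome 11 and 8 on chromosome 17. A promoter sequence was found for 68 of them in RefSeq (GRCm38.p6, 250 bases before to 50 bases after the start, first start listed). Motifs of 3 factors tied in earlier literature to genes of mitochondrial proteins were searched on both strands. The ETS motif, CCGGAAG, stood in 24 of the 68 promoters, or 35.3%, against 16.4% of 11899 promoters of listed genes. The YY1 motif, AAGATGGC, stood in 12, or 17.6%, against 4.31%. The core of the NRF1 motif, GCATGCGC, stood in 8, or 11.8%, against 4.92%. At least 1 of these 3 was present in 36 promoters, or 52.9%, against 23.5%. General promoter elements were not more frequent, since CCAAT was found in 38.2% against 38.6%, GGGCGG in 34 of 68 against 59.4% and TATAAA in 5.88% against 8.62%. GC content was 58.9% in the promoters of the ribosomal genes and 59.6% in all. Of promoters with any of the 3 motifs, 18 belonged to the 28 genes averaging 1 FPKM or more and 18 to the 40 genes below it. These are matches of letters, and no binding was measured.

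To show these elements, 4 promoters are given 5′ to 3′ on the strand of the gene, with motifs in capitals: that of Mrps21, the most abundant, Mrpl22, the most abundant with both ETS and the NRF1 core, Mrps24, the most abundant with YY1, and Mrpl23, the least abundant, in which none of the 3 was found. They lie at chr3:95871465-95871764 (minus strand), chr11:58171414-58171713 (plus strand), chr11:5707652-5707951 (minus strand) and chr7:142532782-142533081 (plus strand).
Mrps21: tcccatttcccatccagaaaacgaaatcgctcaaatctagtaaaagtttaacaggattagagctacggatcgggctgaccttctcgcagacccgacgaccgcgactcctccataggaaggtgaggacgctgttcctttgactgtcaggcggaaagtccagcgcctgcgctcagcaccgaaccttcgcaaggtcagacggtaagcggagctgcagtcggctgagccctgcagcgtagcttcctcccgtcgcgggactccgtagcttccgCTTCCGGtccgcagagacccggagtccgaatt
Mrpl22: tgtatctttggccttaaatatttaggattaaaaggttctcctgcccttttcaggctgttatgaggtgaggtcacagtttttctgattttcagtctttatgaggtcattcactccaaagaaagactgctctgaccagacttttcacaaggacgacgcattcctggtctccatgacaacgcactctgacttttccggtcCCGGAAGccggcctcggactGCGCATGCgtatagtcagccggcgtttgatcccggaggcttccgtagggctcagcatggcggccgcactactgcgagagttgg
Mrps24: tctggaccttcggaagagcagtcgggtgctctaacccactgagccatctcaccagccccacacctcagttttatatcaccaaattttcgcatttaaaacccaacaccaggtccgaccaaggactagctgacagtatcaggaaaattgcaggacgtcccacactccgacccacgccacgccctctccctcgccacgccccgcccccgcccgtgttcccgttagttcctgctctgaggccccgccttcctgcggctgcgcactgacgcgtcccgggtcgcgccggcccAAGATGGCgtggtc
Mrpl23: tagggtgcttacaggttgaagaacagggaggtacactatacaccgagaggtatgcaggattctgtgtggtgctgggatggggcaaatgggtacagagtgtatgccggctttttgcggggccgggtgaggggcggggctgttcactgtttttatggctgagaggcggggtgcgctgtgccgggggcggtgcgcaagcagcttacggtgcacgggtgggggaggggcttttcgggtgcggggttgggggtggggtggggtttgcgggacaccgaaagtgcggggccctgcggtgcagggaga
In Mrps21 and Mrpl22 the capitals mark the ETS motif, the first on the opposite strand. Mrpl22 also holds the NRF1 core on the opposite strand. In Mrps24 they mark the YY1 motif, which begins 36 bases after the start listed in RefSeq. Bases from the end of the window were found in 1 GENCODE M21 transcript each of Mrps21, Mrpl22 and Mrpl23 and in 0 of Mrps24. The GENCODE model of Mrps24 begins at chr11:5715680, so its start and the place of the motif are uncertain.

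Many of these genes share their surroundings with another gene. A protein-coding neighbour that is transcribed away from the same region, with starts within 1000 bp, was present for 18 of the 77 genes, or 23.4%, against 9.57% of 13948 protein-coding genes of the table. The median distance between the starts was 82 bp. Mrps12, a protein of the decoding center, starts 172 bp from Sars2, which charges mitochondrial tRNA with serine, and their mean levels were 0.676 and 0.0737 FPKM. Mrps27 starts 81 bp from Ptcd2, at 0.868 and 2.26 FPKM. Partners of a pair could stand at distant levels, since Mrpl49 was at 0.824 FPKM and Fau, with a start 59 bp away, at 176 FPKM. Mrps18c was at 5.36 FPKM and Helq, 29 bp away, at 0.0225 FPKM. In addition, 32 of the 77 genes share exonic bases with another gene. This was not counted for the other genes of the table, so no background share stands beside it. Mrps11 and Mrpl46 overlap each other on opposite strands, and their levels of 3.62 and 0.667 FPKM can hold each other's reads, since the library kit does not mark strand.

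Levels of the ribosomal proteins differed widely, although 1 copy of most of them is built into each ribosome. The mean over the 6 libraries ran from 0.0292 FPKM for Mrpl23 to 55.5 FPKM for Mrps21, a ratio of 1900. The median gene was at 0.755 FPKM, against 0.243 FPKM for all listed genes. Of the 77 genes, 5 had a mean of at least 10 FPKM, 12 of at least 5 FPKM and 30 of at least 1 FPKM, while 7 were under 0.1 FPKM. The 2 most abundant genes held 36.0% and the 10 most abundant 67.7% of the summed FPKM of the 77.

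Mrps21, a small-subunit protein of a family shared with bacteria, had 67.8, 51.4 and 50.9 FPKM in the controls and 61.5, 56.2 and 45.1 FPKM in the pre-AML libraries, in the order of replicates 1 to 3, as for all such values. These values rest on 448 to 778 reads per library, and the groups overlapped. Mrpl34, a small protein of the large subunit that is also shared with bacteria, had 35.4, 33.6 and 32.4 FPKM in the controls and 30.8, 33.1 and 29.9 FPKM in the pre-AML libraries. It was the steadiest of the 12 genes at 5 FPKM or more, with a ratio of 1.18 between its highest and lowest library, and every one of its values lay below every value of Mrps21. Mrpl14 followed with 20.1, 12.4 and 15.1 FPKM in the controls and 15.1, 18.9 and 14.0 FPKM in the pre-AML libraries, below Mrpl34 in each library.

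Mrpl20, an early-binding protein of the large subunit in bacteria, had 13.5, 13.7 and 14.1 FPKM in the controls and 15.2, 10.1 and 8.78 FPKM in the pre-AML libraries. Mrps23, a small-subunit protein with no bacterial counterpart, had 10.6, 11.6 and 13.1 FPKM in the controls and 11.4, 10.1 and 8.16 FPKM in the pre-AML libraries. The ranges of Mrpl14, Mrpl20 and Mrps23 overlapped, so their order is not separated by the spread between libraries. The plot of all levels by library shows the steep start and the long tail.

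**Figure D1:**
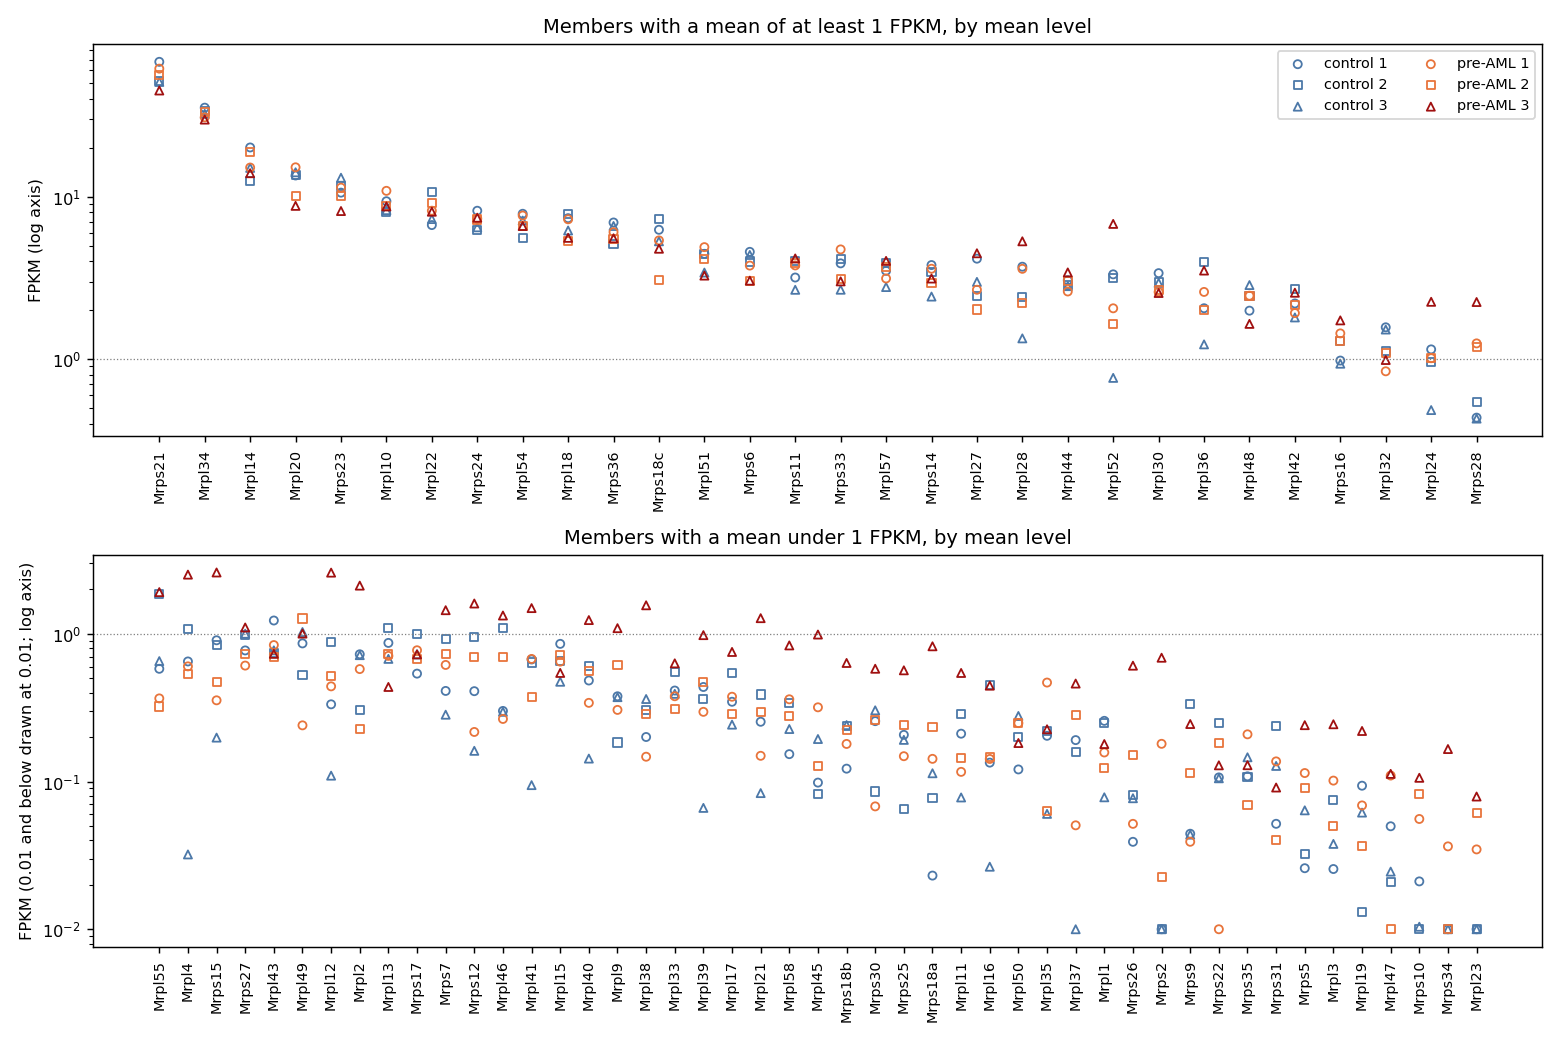
FPKM (vertical, log axis) of each of the 77 genes in each of the 6 libraries, ordered by mean level, for 30 genes averaging 1 FPKM or more (top) and 47 below it (bottom). Circles, squares and triangles are replicates 1, 2 and 3, blue for control and orange or dark red for pre-AML, and in the lower panel pre-AML 3 (dark red triangles) is the highest library of 34 genes.

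At the low end stood Mrpl23, which lines the exit of the peptide tunnel, and Mrps34, a small-subunit protein particular to mitochondria. Mrpl23 was listed at 0 in all 3 controls and at 0.0347, 0.0613 and 0.0792 FPKM in the pre-AML libraries. Mrps34 had 0 reads in each control and 1, 0 and 8 reads in the pre-AML libraries. Mrps10 had 2, 0 and 1 reads in the controls and 6, 10 and 20 reads in the pre-AML libraries. Mrpl47 was at 0.0208 to 0.0498 FPKM in the controls and at 0.110, 0 and 0.113 FPKM in the pre-AML libraries, and Mrpl19 was at 0.0130 to 0.0938 FPKM and 0.0690, 0.0365 and 0.220 FPKM. A count of 0 allows up to 3 reads, or 0.0643 FPKM in pre-AML 3 and 0.128 FPKM in control 1 on a gene of 2 kb, so none of these genes was shown to be absent. In all, 7 genes were at 0 in at least 1 library, and Mrps2, Mrps34 and Mrpl23 in all controls.

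The levels depended on the gene length used. The deposited values divide by the union of all annotated exons, which was a median of 1546.5 bases for the 30 more abundant and 3229 bases for the 47 less abundant genes. With the length of the longest protein-coding transcript in its place, Mrpl13 was at 4.90 in place of 0.755 FPKM, and Mrpl42 at 12.3 in place of 2.22 FPKM. Mrpl33, a small protein of the large subunit, moved from 0.446 to 6.84 FPKM and from rank 49 to 18. Its reads were not whole on the union length, so the size of this move is uncertain. These 3 were chosen after their values were seen. In this setting 36 genes were at 1 FPKM or more, 7 of the 10 most abundant and 6 of the 10 least abundant stayed in those positions, and the ratio of the highest to the lowest was 1208. Mrpl47, the lowest on this scale, was also without whole reads, so these counts and the ratio carry the same limit. Across genes, which are not independent, Spearman's rho of level and exon length was -0.64, and -0.58 with both on the transcript length. Length is the divisor of the level in both cases, so a negative rho is partly built in. Reads were not set against length.

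The levels of both name groups and of both classes overlapped. The median gene was at 0.797 FPKM among those named Mrpl and at 0.737 FPKM among those named Mrps. The 46 genes sorted into families shared with bacteria had a median of 0.855 FPKM, and the 31 sorted as particular to mitochondria 0.563 FPKM, with ranges of 0.0292 to 55.5 and 0.0338 to 10.8 FPKM. The second class held Mrps18a and Mrps18b, although their paralog Mrps18c stood in the first, and it also held Mrps36. Paralogs differed, as Mrps18c was at 5.36 FPKM while Mrps18a and Mrps18b were at 0.236 and 0.273 FPKM. Mrps18a, like Mrps30 at 0.259 FPKM, belongs to the large subunit despite its name. Mrps36, at 5.95 FPKM, is now known as a component of the oxoglutarate dehydrogenase complex. With Mrps18a and Mrps30 counted as large and Mrps36 left out, the medians were 0.768 FPKM over 50 genes of the large and 0.738 FPKM over 26 of the small subunit. Mrpl58, at 0.366 FPKM, also releases peptides from stalled ribosomes. Mrpl12, whose copies form the stalk of the large subunit, was at 0.815 FPKM. These genes and the neighbouring pairs were named for their roles or positions.

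The study examined the mitochondria of pre-AML platelets, and for the ribosomal genes the comparison asks whether their messages differed from those of control platelets. The 30 genes averaging 1 FPKM or more, 39.0% of the 77 against 29.5% of listed genes, entered a limma-trend fit on log2(FPKM + 1) over all genes at such a level. Fold changes on this scale understate those of low genes. None of the 30 passed an adjusted p of 0.05, where 0.0227% of all tested genes, 1 gene, did so as higher and 0 as lower. At an unadjusted p under 0.05, 1 of the 30 was higher, against a background of 2.56%, and 0 were lower, against 6.53%. Adjusted p ran from 0.522 to 0.992 (limma-trend, Benjamini-Hochberg). Log2 fold changes lay between -0.45 and 0.78, with 21 of 30 within 0.25 of 0 and a median standard error of 0.17.

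The median log2 fold change of the 30 genes was 0.014, against -0.055 for all tested genes. Of the 30, 16 were above 0, where 41.5% of all tested genes were. Genes named Mrpl had a median of 0.024 over 19 genes and those named Mrps 0.011 over 11, or 0.014 over 10 without Mrps36. Scaling every library to recovered reads moved the medians of the ribosomal genes and of all genes together, to 0.12 and 0.051. The sign of the small median rested on single libraries, since it was -0.094 without control 3, against -0.046 for all genes, and -0.032 without pre-AML 1, against -0.074.

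**Figure D2:**
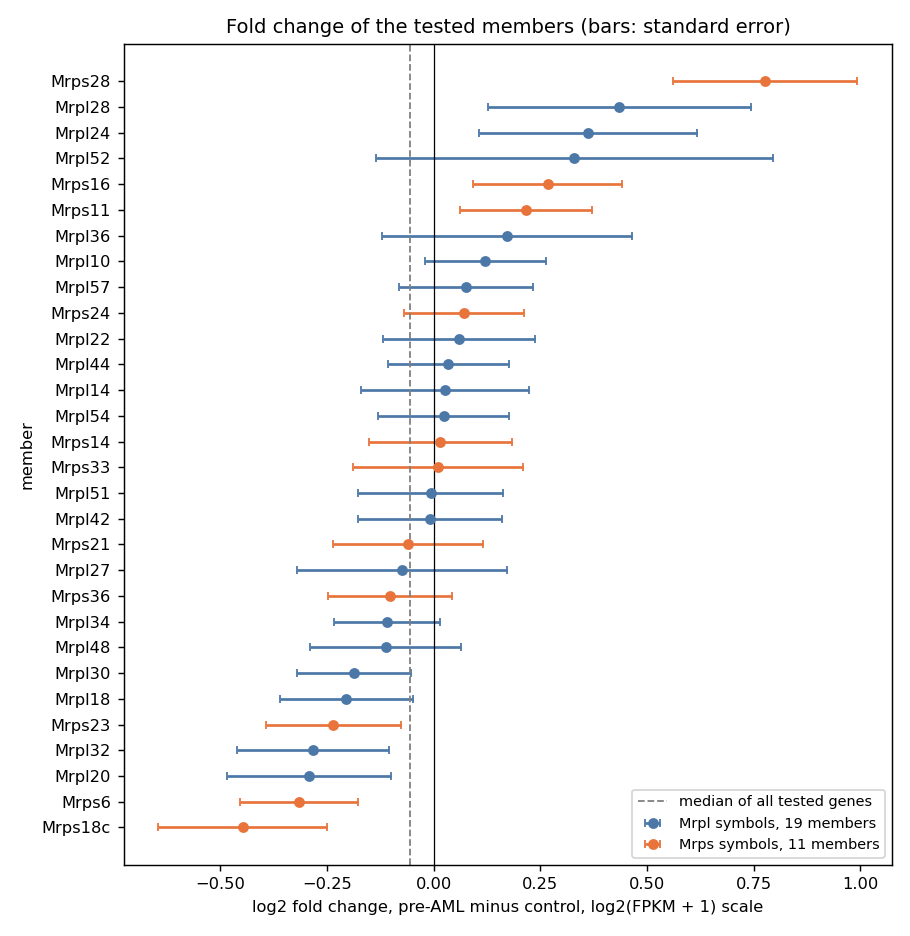
Log2 fold change of the 30 tested genes (horizontal, pre-AML minus control on the log2(FPKM + 1) scale) with its standard error as bars, blue for 19 genes named Mrpl and orange for 11 named Mrps, and a dashed line at the median of all tested genes, -0.055. Mrps28 lies farthest to the right at 0.78 and Mrps18c farthest to the left at -0.45, and 0 genes passed the adjusted threshold.

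Mrps28, a small-subunit protein related to bacterial S1, had the largest log2 fold change of the 30. Its level was 0.435, 0.545 and 0.429 FPKM in the controls and 1.25, 1.19 and 2.24 FPKM in the pre-AML libraries. All pre-AML libraries were above all controls, and pre-AML 3 was highest. The reads behind them were few, with 4, 6 and 4 in the controls and 13, 14 and 41 in the pre-AML libraries. Means were 0.470 ± 0.0649 and 1.56 ± 0.594 FPKM (SD, n = 3), and the log2 fold change was 0.78 ± 0.22 (SE), and limma-trend gave an adjusted p of 0.522. Over the alternative settings the fold change was between 0.59 and 1.74 and the adjusted p between 0.307 and 0.730. Since its control mean was under 1 FPKM, Mrps28 passed the filter through its pre-AML values. The same holds for Mrpl24, and Mrpl32 passed through its control values.

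Among the 30 tested genes, groups did not overlap for 2 that were higher, Mrps28 and Mrps16, against 6.14% of all tested genes, and for 3 that were lower, Mrps6, Mrpl32 and Mrpl30, against 12.8%. Mrps16, a small-subunit protein shared with bacteria, had 0.978, 1.29 and 0.935 FPKM in the controls and 1.44, 1.29 and 1.73 FPKM in the pre-AML libraries. Control 2 and pre-AML 2 were the same to 3 digits, so the groups were barely separate, and the log2 fold change was 0.27 at a limma-trend adjusted p of 0.561.

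Mrps6 had 4.57, 3.99 and 4.38 FPKM in the controls and 3.76, 3.03 and 3.04 FPKM in the pre-AML libraries. All pre-AML values lay under all control values, with a log2 fold change of -0.32 ± 0.14 (SE), and limma-trend gave an adjusted p of 0.522. Mrps6 shares exonic bases with Slc5a3 on the same strand, so its reads could not be assigned with certainty. Mrpl32, a large-subunit protein that is cut to its mature form by a mitochondrial protease, had 1.57, 1.12 and 1.52 FPKM in the controls and 0.840, 1.09 and 0.986 FPKM in the pre-AML libraries, a log2 fold change of -0.28 at a limma-trend adjusted p of 0.555. This fold change was -0.48 with a pseudocount of 0.1 and -0.034 with trends in length and GC content removed. Mrpl30 had 3.38, 2.97 and 2.94 FPKM in the controls and 2.59, 2.65 and 2.55 FPKM in the pre-AML libraries, a log2 fold change of -0.19 at a limma-trend adjusted p of 0.588. Its fold change was 0.025 once the trends of every library with length and GC content were taken out.

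With no filter on low values all 77 genes were fitted, and 0 passed the adjusted threshold, as for all 14975 genes. At an unadjusted p under 0.05, Mrps28, Mrps10 and Mrpl23 were higher, against a background of 3.32%, and Mrps6 was lower, against 2.49%. Without pre-AML 3 as well, the higher genes were these and Mrps5, against 4.79%, and 0 were lower, against 2.58%. Their differences were small on this scale, as the log2 fold change of Mrps10 was 0.098 and that of Mrpl23 0.082, and limma-trend put both at an adjusted p of 0.705.

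Over all 77 genes, groups did not overlap for 7 that were higher in pre-AML platelets, or 9.09% against 7.53% of all listed genes, and for 3 that were lower, or 3.90% against 5.74%. Of the 7, Mrps28, Mrps16, Mrps10, Mrps5, Mrps2 and Mrps18a carry the small-subunit prefix, and Mrpl23 that of the large subunit. All 7 were highest in pre-AML 3. Mrps2 had 0 reads in each control and 7, 1 and 47 in the pre-AML libraries. Mrps18a had 1, 4 and 5 reads in the controls and 7, 13 and 71 in the pre-AML libraries. Mrps5 had 2, 3 and 5 against 10, 9 and 37 reads. Most of the excess of these 3 genes over the controls came from 1 library, while the first 2 pre-AML libraries held at most 13 reads of any of them. With no filter, 51 of the 77 genes were above 0, against 59.1%. Without pre-AML 3, groups did not overlap for 7 higher genes, against 11% of all listed genes, and 6 lower, against 8.98%, and 42 were above 0, against 49.9%.

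The less abundant genes were high in pre-AML 3. Of the 47 genes under the filter, 34, or 72.3%, had their highest value there, against 43.2% of all 10563 listed genes under the filter. All such genes were not matched to the 47 in level, and how much of the difference goes with level was not tested. The summed level of the 47 was 15.2, 20.2 and 11.4 FPKM in the controls and 13.5, 15.5 and 39.3 FPKM in the pre-AML libraries. Thus pre-AML 1 and pre-AML 2 lay within the range of the controls, and pre-AML 3 above it. For the 30 tested genes the answer depended on the scale. As deposited, their sums were 251, 224 and 211 FPKM in the controls and 236, 218 and 211 FPKM in the pre-AML libraries, and 9 of 30 were highest in pre-AML 3, against 18.7% of all tested genes. Scaled to recovered reads, the sums were 247, 227 and 210 in the controls and 232, 220 and 277 in the pre-AML libraries, with pre-AML 3 highest. Genes of the 77 at 1 FPKM or more numbered 29, 32 and 28 in the controls, 29 and 31 in the first 2 pre-AML libraries and 44 in pre-AML 3. The same count was not made over all listed genes, so it is not a result about these genes.

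Relative to the control mean, the median log2 ratio of the 47 genes was 0.37 in pre-AML 3, against 0.051 for all genes under the filter, and between -0.021 and 0.054 in the other libraries. For the 30 tested genes it was -0.039 in pre-AML 3, against -0.17 for all tested genes. This scale understates the ratios of low genes, and all genes were not matched in level, so these medians are not directly comparable. Scaled to recovered reads, 36 of the 47 were highest in pre-AML 3, against 52.5% of all genes under the filter, and 18 of the 30, against 44.7%. In reads, the 64 genes with whole read counts held 0.0254% to 0.0303% of the reads in the controls, 0.0293% and 0.0277% in the first 2 pre-AML libraries and 0.0417% in pre-AML 3. Mrpl12 shows the pattern, with 6, 19 and 2 reads in the controls and 9, 12 and 93 in the pre-AML libraries.

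**Figure D3:**
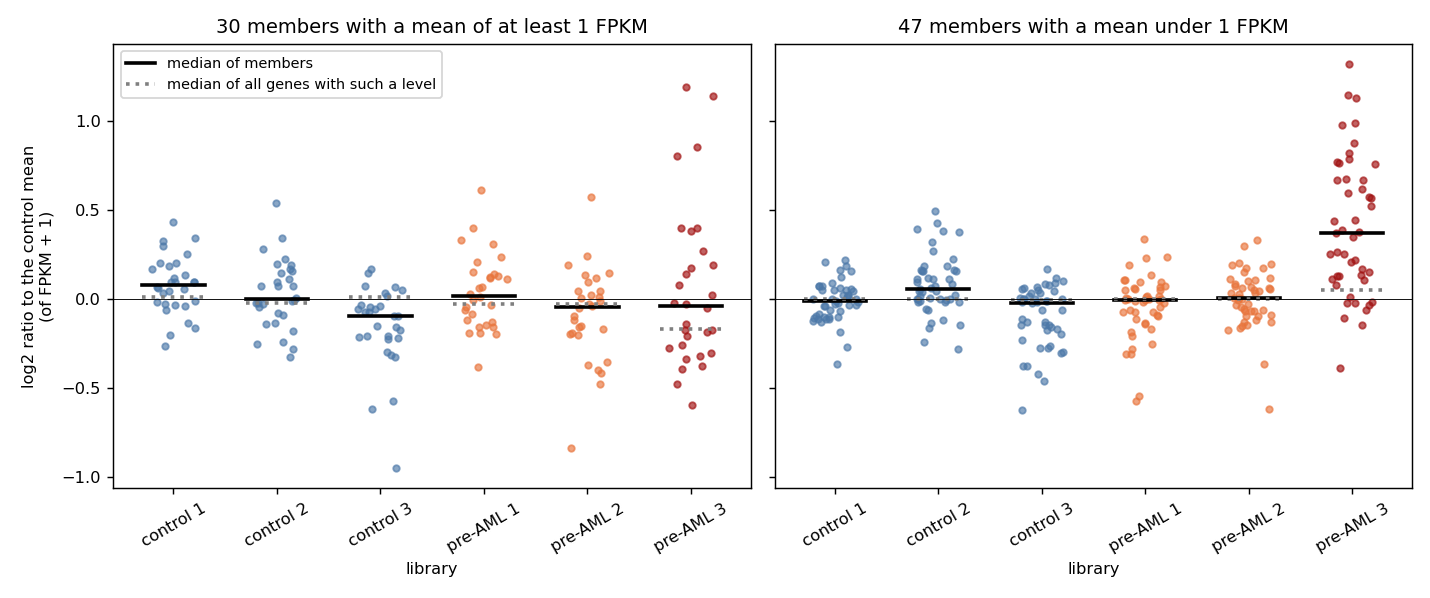
Log2 ratio of FPKM + 1 to the control mean (vertical) for each gene in each library (horizontal), for the 30 tested genes (left) and the 47 under the filter (right), with black lines at their medians and dotted grey lines at the medians of all genes on the same side of 1 FPKM, not matched further in level. In the right panel pre-AML 3 has a median of 0.37, and the other 5 libraries have medians between -0.021 and 0.054.

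The ratio in pre-AML 3 moved with base composition. The 26 genes with the lowest GC content in their exons, 38.6% to 46.9%, had a median log2 ratio of -0.0037 to the control mean, and 8 of them were highest in pre-AML 3, against 28.1% of all genes in that range. The next 25 genes were at 0.37, with 15 highest there, against 35.5%. The 26 genes with the highest GC content, 52.2% to 60.4%, were at 0.62, with 20 highest there, against 45.3%. Of these 26, all 16 genes under the filter had their highest value in pre-AML 3, against 52.6% of all genes under the filter in this range. From low to high GC content, tested genes had medians of -0.21, -0.023 and 0.050 in pre-AML 3, against -0.43, -0.17 and 0.051 for all tested genes. Genes under the filter had 0.11, 0.48 and 0.72, against 0.019, 0.053 and 0.11 for all such genes, so the high pooled medians came mostly from them. Genes within a range were not matched in level, and this scale understates the ratios of low genes. In pre-AML 3, 7 of 7 B cell markers, 10 of 11 monocyte and macrophage markers and 7 of 9 T and NK cell markers were highest. The part of other cells, of base composition, of level and of depth in these values was not tested.

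**Figure D4:**
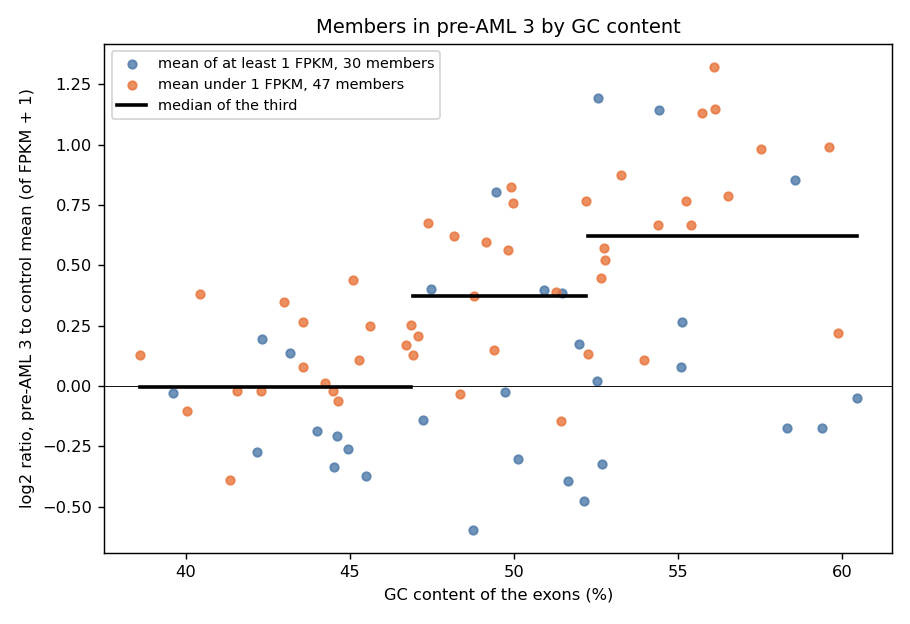
Log2 ratio of FPKM + 1 in pre-AML 3 to the control mean (vertical) against the GC content of the exons in percent (horizontal) for 30 tested genes (blue) and 47 genes under the filter (orange), with black lines at the median of the genes with low, middle and high GC content. The medians are -0.0037, 0.37 and 0.62 from low to high GC content.

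Within the controls, too, the ribosomal genes did not vary evenly. The median coefficient of variation over the 3 controls was 16.9% for the 30 tested genes and 14.8% for all tested genes. Of these 30 genes, 10 were highest in control 1, against 23.0% of all tested genes, and 11 lowest in control 3, against 11.9%. Scaled to recovered reads, 4 were highest in control 1, against 16.4%, and 13 lowest in control 3, against 15.7%. Of the 12 genes at 5 FPKM or more, Mrps18c had the largest ratio between its highest and lowest library, 2.38, with 6.26, 7.33 and 5.31 FPKM in the controls and 5.38, 3.08 and 4.78 FPKM in the pre-AML libraries. Its log2 fold change was -0.45 ± 0.20 (SE), and limma-trend gave an adjusted p of 0.522, and the groups overlapped. Mrps18c was chosen for this ratio after its values were seen.

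Other genes of mitochondrial translation were mostly less abundant. Of those tested, 0 had an unadjusted p under 0.05 in limma-trend, where 2.56% of all tested genes were higher and 6.53% lower. With 1 to 3 tested genes per list, so few genes cannot differ clearly from these shares. Of 5 mitoribosomal proteins with other symbols, Aurkaip1 was the most abundant and the single one tested. It had 4.83 to 5.21 FPKM in the controls and 5.48 to 7.18 FPKM in the pre-AML libraries, higher without overlap, as were 6.14% of all tested genes. Its log2 fold change was 0.26 at a limma-trend adjusted p of 0.526. Of 11 listed translation factors, 1 was tested, the ribosome recycling factor Mrrf, at a mean of 3.94 FPKM and a log2 fold change of -0.085. The elongation factor Tufm was under the filter at 0.210 FPKM.

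Of 20 genes for charging mitochondrial tRNA, 2 were tested. Lars2, for leucine, was at 696, 95.1 and 184 FPKM in the controls and at 183, 284 and 128 FPKM in the pre-AML libraries, so the controls alone spanned the pre-AML values. Fars2, the other, averaged 2.60 FPKM, and 18 of the 20 were under 1 FPKM. Whether all reads counted for Lars2 come from its message was not tested. Of 26 genes of ribosome assembly and rRNA modification, 3 were tested, and the most abundant, Ngrn, was at 4.04 FPKM with a log2 fold change of 0.033. Another, Mterf3, named after its values were seen, had 1.72 to 1.84 FPKM in the controls and 1.12 to 1.56 FPKM in the pre-AML libraries. Mterf3 was lower without overlap, as were 12.8% of all tested genes, at a log2 fold change of -0.27 and a limma-trend adjusted p of 0.538. Of 11 genes of mitochondrial transcription and mRNA handling, 1 was tested, Tfb2m, at 2.04 FPKM with a log2 fold change of -0.22. Messages and ribosomal RNAs that mitochondria encode themselves were not analysed here.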

How the data were processed

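The authors depleted CD45+ and Ter119+ cells, amplified polyA RNA with SMART-Seq2, made Nextera XT libraries, mapped reads to mm10 with STAR (2.5.2b) and named DESeq2 for testing. The counting program and annotation are not given in the sources used here. The table they deposited holds FPKM values of 14975 genes in 6 libraries, and 0 columns of per-sample values were left out. A count model was therefore not the main test. Amplified reads are not independent molecules, so limits from reads cover counting error only.

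Gene lengths, GC content and positions were taken from GENCODE M21 (GRCm38). FPKM times exon length gave whole reads, within 0.02 reads, for 81.8% of non-zero values and for all 6 libraries in 64 of the 77 genes. Genes averaging 1 FPKM or more were fitted as log2(FPKM + 1) by limma-trend (version 3.58.1 of limma in R 4.3.3), with no covariate, two-sided, and with Benjamini-Hochberg adjustment at 0.05. The script was tested on simulated data. Summaries used Python 3.11.15. Named genes were those at an unadjusted p under 0.05, the 5 highest and 5 lowest by mean, those whose groups did not overlap and the highest of each pathway list, and others are said to be chosen otherwise. Members and lists were chosen with earlier results of these data known. Alternatives were another pseudocount (0.1), no filter, other scalings, removal of length and GC trends, limma-voom on recovered reads, the replicate number as a block and leaving out each library. Scaling to recovered reads, no filter without pre-AML 3, and transcript length were chosen after seeing the data. Deviations of same-numbered libraries from their group means had r = -0.043, -0.12 and -0.17. Control 3 had r of 0.14 and 0.17 with pre-AML 1 and pre-AML 2 and -0.17 with pre-AML 3. As pre-AML 3 stood apart from its group, these values cannot decide whether libraries were paired. The numbers were not taken as pairs in the main fit. Protein sequences were not analysed here.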

Additional observations from a re-analysis of the deposited data

How the results depend on the processing

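No ribosomal gene passed the adjusted threshold in the main analysis or in any of the 15 alternatives. Scaling set the level of the medians. The median log2 fold change was 0.17 with FPKM rescaled to the same sum, 0.15 with limma-voom on recovered reads and 0.12 scaled to recovered reads, where that of all genes was 0.090, 0.073 and 0.051, and -0.094 (without control 3) to 0.070 (without control 1) with single libraries left out. Genes at an unadjusted p under 0.05 numbered 3 higher and 1 lower with no filter, against 3.32% and 2.49% of all listed genes. They numbered 4 higher with no filter and without pre-AML 3, against 4.79%. There was 1 lower gene with a pseudocount of 0.1, 2 with length and GC trends removed and 0 to 3 with single libraries left out, the 3 without pre-AML 1 and 1 without control 3. Genes higher without overlap numbered 7 with no filter, 7 with no filter and without pre-AML 3, 1 with quantile normalization and 2 to 5 with single libraries left out, the 5 without control 1 and 4 without control 2. Genes lower without overlap numbered 0 with FPKM rescaled to the same sum, 1 with limma-voom, 1 scaled to recovered reads, 6 with no filter and without pre-AML 3, and 3 to 7 with single libraries left out, the 7 without pre-AML 1 and 6 without control 3. Of all listed genes, 7.53% were higher and 5.74% lower without overlap with no filter, and 11% and 8.98% without pre-AML 3 as well. Smaller groups thus fail to overlap more readily. Shares over all genes were not computed for the other alternatives, so their counts are not a result about these genes. Mrpl30 turned to 0.025 with length and GC trends removed. The cause of these shifts was not tested. The replicate block left 1 gene higher and 0 lower at an unadjusted p, with a median of 0.014. With 47 of 77 genes under 1 FPKM, and Mrps28 at 4 to 6 reads in the controls, depth limits what could be seen of the less abundant genes. Mrpl32 kept its direction but was at -0.034 with length and GC trends removed. Pathway lists had 1 to 3 tested genes each.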
